A study of Mus musculus with 15 samples.

Results

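MHC class I and antigen processing is described here by 10 genes, taken by gene name with no measured value in the rule: H2-K1, H2-D1, B2m, Tap1, Tap2, Tapbp, Psmb8, Psmb9, Psmb10 and Nlrc5. They took up 11 of the 37991 gene identifiers of the count table, because Psmb9 had 2, and 9 of the 10 genes had a count in any library. Expression was measured by RNA sequencing of poly(A) RNA from whole flash-frozen liver in 3 groups of 5 libraries. Young WT livers came from 90-day-old wild-type mice, old WT livers from 600-day-old wild-type mice, and old KO livers from 600-day-old mice with a germline knockout of S6K1, the kinase encoded by Rps6kb1. All mice were female on a C57BL/6 background. The knockout was present in every cell of the animal, so hepatocytes and immune cells of old KO mice both carried it, and no young KO library was analysed here, so genotype was compared at 600 days only. The labels number the samples of a group as separate livers, and p-values measure the spread between these samples.

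MHC class I molecules carry short peptides from inside a cell to its surface, where CD8 T cells and natural killer cells read them. Proteasomes cut proteins into peptides, the TAP transporter moves these into the endoplasmic reticulum, and chaperones load them onto a heavy chain paired with beta-2 microglobulin. Interferons raise the genes of this route, and they swap the catalytic subunits of the constitutive proteasome for inducible ones, giving the immunoproteasome. Hepatocytes, Kupffer cells and liver endothelial cells all express class I molecules, and a whole-liver library holds the RNA of all of them.

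The genes lie mostly in the MHC on chromosome 17 (NCBIM37, the build also called mm9). The classical heavy chains were H2-K1 (ENSMUSG00000061232, chr17:34132962-34137278, minus strand) and H2-D1 (ENSMUSG00000073411, chr17:35399675-35404444, plus strand). Their promoters are known for a shared enhancer, and the 250 bases before the RefSeq start of H2-K1 and the corresponding bases of B2m (ENSMUSG00000060802, chr2:121973422-121978819, plus strand) are given to show the motifs that these genes carry. Capitals mark exact matches to 6 motifs, searched on both strands, so a near match stays in lower case. These were the 11-letter kB site of the class I enhancer, the interferon-stimulated response element, in which the letters GAAA stand on either side of a pair of free bases, and the gamma-activated site, TTCNNNGAA. Shorter ones were the CRE core, with the letters TGACG, the CCAAT box, named for its letters, and a TATA box of the letters TATAAA. In the H2-K1 sequence the capitals are, from left to right, the kB site, the CRE core and a CCAAT box on the other strand. In the B2m sequence they are TATAAA on the other strand, the response element, the CRE core and a CCAAT box on the other strand. The first of these lay at bases -152 to -147 from the start. A TATA-like stretch nearer the start does not have those exact letters and was left in lower case. Sequences are those of the RefSeq promoter table, placed on NCBIM37 by exact match.
H2-K1, chr17:34137293-34137542, minus strand: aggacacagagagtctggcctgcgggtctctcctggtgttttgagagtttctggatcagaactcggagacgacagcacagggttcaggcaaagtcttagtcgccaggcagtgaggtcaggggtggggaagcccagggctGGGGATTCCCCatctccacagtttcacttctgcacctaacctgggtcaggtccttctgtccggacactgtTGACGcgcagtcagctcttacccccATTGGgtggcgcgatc
B2m, chr2:121973173-121973421, plus strand: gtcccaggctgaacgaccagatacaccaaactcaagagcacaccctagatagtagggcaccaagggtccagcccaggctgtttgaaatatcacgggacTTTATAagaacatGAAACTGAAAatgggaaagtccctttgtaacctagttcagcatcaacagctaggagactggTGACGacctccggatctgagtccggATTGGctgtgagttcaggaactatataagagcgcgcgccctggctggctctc

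The kB site of H2-K1 lay at bases -111 to -101 from the start and that of H2-D1 at -171 to -161. Of 32851 RefSeq promoters 10 (0.0304%) held these 11 letters in their 250 bases, and the stretches of 30 bases around the site in the 2 heavy chain genes read as follows, with the site in capitals.
H2-K1, chr17:34137384-34137413, minus strand: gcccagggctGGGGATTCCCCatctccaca
H2-D1, chr17:35399858-35399887, plus strand: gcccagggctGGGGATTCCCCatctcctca
Both heavy chain promoters and that of B2m also held a CRE core, found in 17.8% of all promoters, and a CCAAT box, found in 33.8%. The B2m promoter held an interferon-stimulated response element at -139 to -130, a motif of 2.98% of promoters. Psmb8 held a gamma-activated site, found in 7.02% of promoters, at -97 to -89 from its RefSeq start, which is given in capitals.
Psmb8, chr17:34335033-34335062, plus strand: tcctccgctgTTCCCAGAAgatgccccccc
The Tapbp promoter held 2 CCAAT boxes, and the overlapping promoters of Tap1 and Psmb9 each held a CRE core and a CCAAT box. No exact match to the 6 motifs stood in the Psmb10 promoter. A match is a description of the letters and not evidence of a bound factor. Nor does a missing match show that an element is absent, since near matches were not sought.

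The peptide transporter and immunoproteasome genes sit side by side. Within 34.3 kb of chromosome 17 stood Psmb9, Tap1 (ENSMUSG00000037321, chr17:34324498-34334170, plus strand), Psmb8 (ENSMUSG00000024338, chr17:34334666-34338399, plus strand) and Tap2 (ENSMUSG00000024339, chr17:34340472-34353266, plus strand). Tapbp (ENSMUSG00000024308, chr17:34052844-34066235, plus strand) lay elsewhere in the MHC. Psmb10 (ENSMUSG00000031897, chr8:108459628-108462292, minus strand) and Nlrc5 (ENSMUSG00000074151, chr8:96996663-97051172, plus strand) are on chromosome 8. GENCODE M1 lists Nlrc5 as a lincRNA and the other members as protein-coding.

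**Figure D1:**
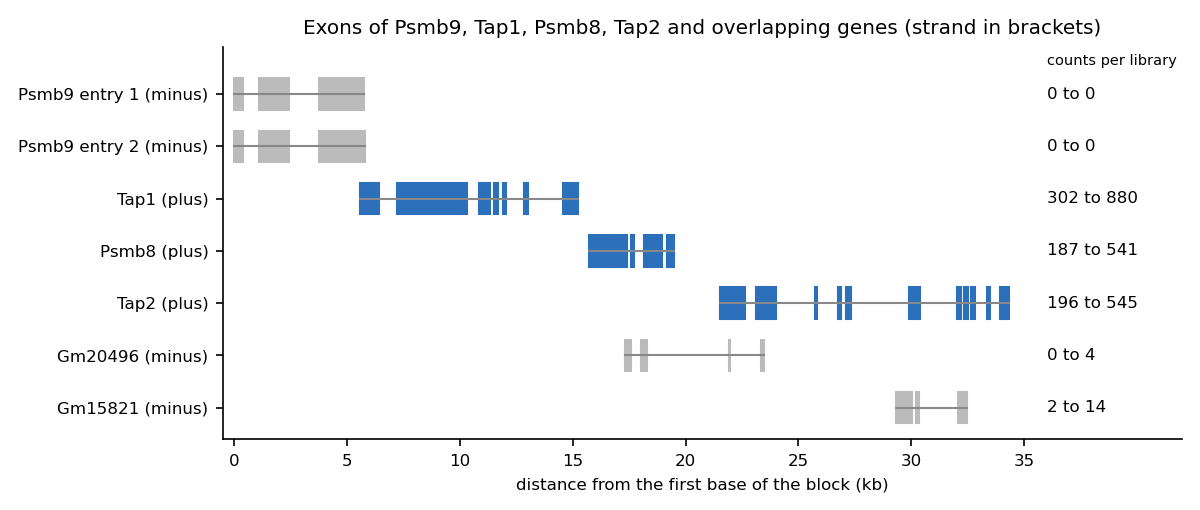
Exons (boxes) of Psmb9, Tap1, Psmb8, Tap2 and the genes that overlap them, by distance in kb from the first base of the block, with the lowest and highest count per library on the right. The 2 entries of Psmb9 cover the same exons and both have 0 counts, and the genes in blue are those with a highest count of at least 100.

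Psmb9, which encodes the inducible subunit beta 1i, had 0 counts in all 15 libraries under both of its identifiers. The entries (ENSMUSG00000024337, chr17:34318932-34324697, and ENSMUSG00000092299, chr17:34318933-34324709, both minus strand) share 3647 exonic bases, which is 99.97% and 99.67% of their lengths. Of 107 protein-coding entries with at least 99% of their exonic bases in another entry on the same strand, 103 (96.26%) had 0 counts in every library, against 3951 of 17612 (22.43%) among entries that share no exonic base with another. The values of Psmb9 therefore say nothing of its expression, and no fold change is given for it. Of 36 entries that lie at least 99% opposite another gene, 35 (97.22%) also had 0 counts. Smaller stretches of this kind were found in Tap2, with 18.46% of its exonic bases opposite 2 other genes, in Psmb8 with 6.835% and in Tap1 with 3.871%. How much these overlaps lowered the counts of Tap1, Psmb8 and Tap2 was not tested.

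Reads of 50 bases cannot always tell the heavy chain genes apart. Of the 2363 exonic windows of 50 bases in H2-K1, 401 (17%) occurred again on chromosome 2, 8 or 17, and H2-D1 held 242 of them. In H2-D1 it was 309 of 2246 (13.8%). The longest coding stretch that the 2 genes share base for base has 91 bases, at chr17:34134288-34134378 in H2-K1 (minus strand) and chr17:35402856-35402946 in H2-D1 (plus strand), and shows what such a read meets.
H2-K1 and H2-D1, shared stretch: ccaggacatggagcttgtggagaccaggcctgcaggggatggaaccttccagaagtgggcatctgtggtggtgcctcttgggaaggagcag
B2m and Psmb10 had no such window, and the other members with counts had between 0.122% and 2.13%. The levels of H2-K1 and H2-D1 are thus uncertain to the extent that reads were lost from or moved between them.

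Total counts per library ranged from 21801754 to 38065359, and 14258 genes were tested. Rps6kb1 had 38.3 ± 3.14 CPM (library-size scaled read counts, with TMM factors; SD, n = 5) in young WT, 38.4 ± 4.21 in old WT and 17 ± 2.23 in old KO, with every old KO library below every WT library. Hepatocyte markers dominated every library, with a summed level of 100400 to 172100 CPM. The 5 skeletal muscle genes summed to 21.7 CPM in old KO 6 and to at most 0.747 CPM in the other 14 libraries. Several results are therefore also given without old KO 6.

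The heavy chains and B2m were the most abundant members. Per kb of exon, B2m had 1860 ± 244 CPM in old WT (SD, n = 5), H2-K1 381 ± 51.9 and H2-D1 166 ± 12.9. The processing genes were far lower, with Tapbp at 21.6 ± 2.95 and Psmb10 at 14.8 ± 3.22 CPM per kb, and Psmb8 at 4.98 ± 0.992, Nlrc5 at 4.16 ± 0.403, Tap1 at 4.14 ± 0.497 and Tap2 at 3.49 ± 0.501. In that order the first 3 genes did not overlap across the old WT libraries, the ranges of Tapbp and Psmb10 overlapped, and so did those of Psmb8, Nlrc5, Tap1 and Tap2. Psmb10 and Psmb8 did not overlap per kb, but in CPM they did, at 13.27 to 24.51 and 11.49 to 17.02. The length used was that of all annotated exons of a gene merged, 1270 bases for Psmb10 and 2736 for Psmb8. The order of the lower members depends on these lengths.

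H2-K1, a classical heavy chain, had 1104, 996, 957, 939.8 and 882 CPM in young WT 1, 2, 3, 4 and 6. Old WT 1, 4, 5, 7 and 10 had 951.5, 919, 1136, 831 and 1132 CPM. Old KO 1, 2, 4, 5 and 6 had 819, 944.5, 942, 1127 and 978 CPM, and libraries are listed in this order throughout. The ranges of the 3 groups overlapped almost fully.

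H2-D1, the other classical heavy chain of this strain, had 450.5, 405, 416, 397.5 and 414 CPM in young WT. It had 409.8, 397, 467, 413.5 and 466 CPM in old WT and 339.9, 357, 351, 478 and 383 CPM in old KO livers. The old KO group held both the highest library and the 4 lowest.

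B2m, the light chain that every class I molecule needs, had 1290, 1172, 1412, 1350 and 1245 CPM in young WT. It had 1585, 1358, 1804, 1432 and 1817 CPM in old WT and 1612, 1540, 1743, 2068 and 1509 CPM in old KO livers. Old WT 4 fell within the young range, and all 5 old KO livers lay above it.

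Tap1 encodes a subunit of the transporter associated with antigen processing and had 23.2, 22.8, 20.96, 20.9 and 22.4 CPM in young WT. It had 25.5, 19.7, 24.03, 19.8 and 24.4 CPM in old WT and 20.2, 21.2, 18.97, 15.8 and 14.02 CPM in old KO livers. Old KO 4, 5 and 6 lay below all 10 WT libraries, and the groups overlapped through old KO 1 and 2.

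Tap2, its partner subunit, had 12.03, 13.2, 10.2, 11.7 and 11.8 CPM in young WT. It had 13.1, 11.6, 16.2, 11.7 and 13.4 CPM in old WT and 13.9, 14.3, 13.4, 15.2 and 9.10 CPM in old KO livers. The groups overlapped, and old KO 6 was the lowest of all 15 libraries.

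Tapbp encodes tapasin, which bridges TAP and the empty class I molecule, and had 52.3, 54.5, 55.4, 57.2 and 60.96 CPM in young WT. It had 68.2, 71.3, 85.3, 58.4 and 73.5 CPM in old WT and 71.5, 71.98, 76.4, 72.3 and 56.9 CPM in old KO livers. Old WT 7 and old KO 6 lay within the young range and the other 8 old livers above it.

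Psmb8 encodes the inducible subunit beta 5i and had 8.69, 8.37, 8.74, 11.1 and 11.55 CPM in young WT. It had 11.96, 11.49, 16.1, 11.55 and 17.02 CPM in old WT and 11.8, 11.4, 11.8, 12.2 and 8.68 CPM in old KO livers. Old WT and young WT overlapped between 11.49 and 11.55 CPM, and old KO 6 lay among the lower young livers.

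Psmb10 encodes the inducible subunit beta 2i and had 8.06, 9.22, 8.47, 11.8 and 11.99 CPM in young WT. It had 19.96, 18.9, 24.5, 13.3 and 17.3 CPM in old WT and 19.4, 18.7, 21.2, 20.1 and 12.1 CPM in old KO livers. Every old liver was above every young liver, with old WT 7 and old KO 6 closest to them.

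Nlrc5, the transactivator of class I genes, had 36.6, 31.2, 32.5, 39.2 and 35.4 CPM in young WT. It had 27.4, 34.5, 32.3, 28.5 and 29.3 CPM in old WT and 20.6, 28.4, 24.8, 30.02 and 21.3 CPM in old KO livers. Here the order ran the other way, with the 5 old KO livers below the 5 young ones.

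**Figure D2:**
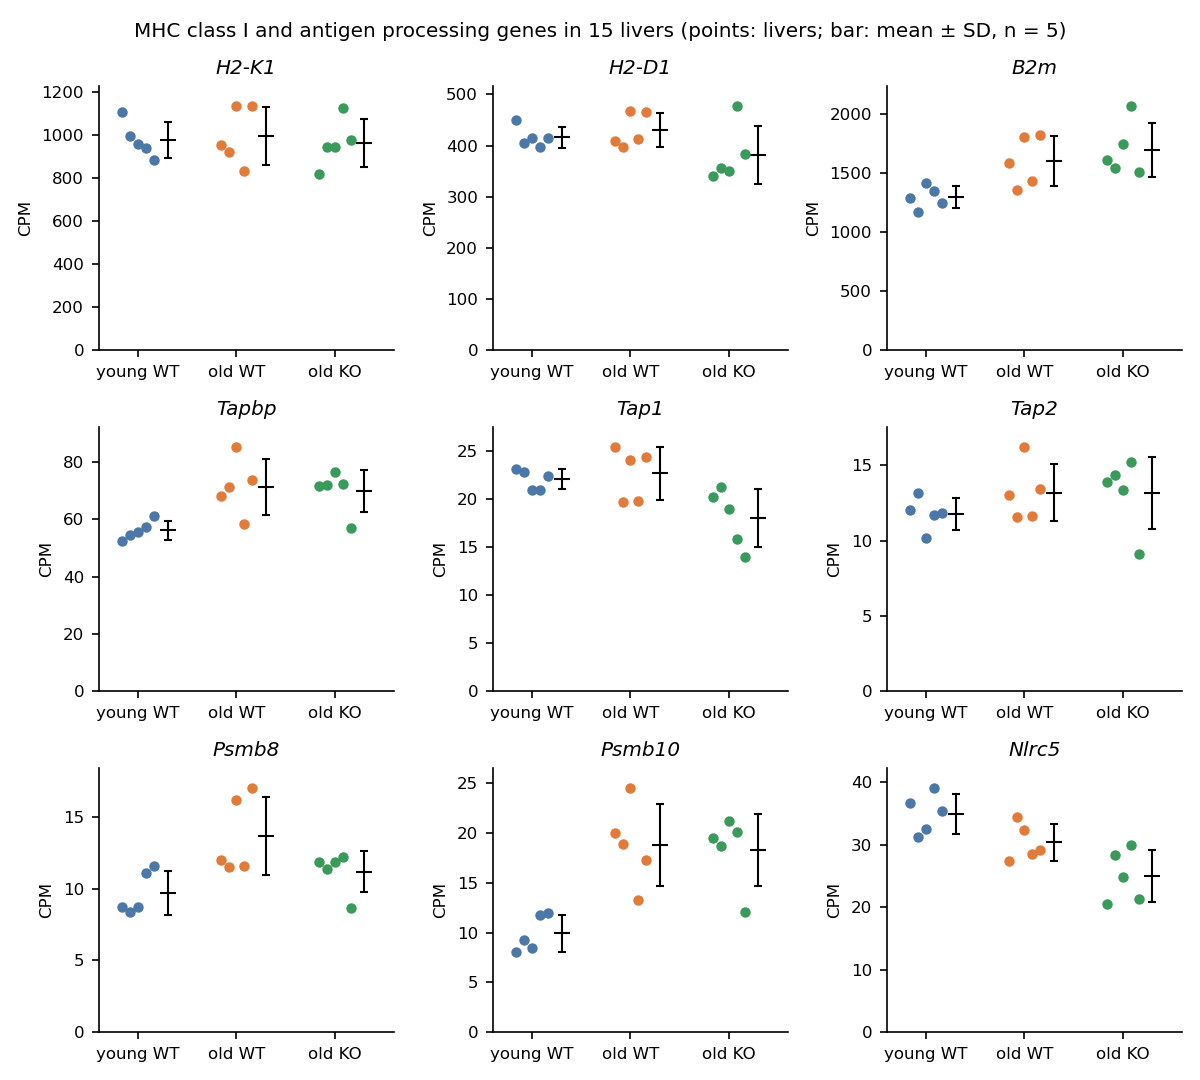
Expression of the 9 members with counts, in CPM on axes that start at 0, in each liver (points) with the group mean and SD (bars, n = 5). Psmb10 separates old from young livers, Nlrc5 separates old KO from young WT livers, and the ranges of H2-K1 overlap in all 3 groups.

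The first comparison asked how age changed these genes in WT mice. In old WT livers the inducible proteasome subunits Psmb8 and Psmb10 and the loading factor Tapbp were higher than in young WT livers, while the heavy chains H2-K1 and H2-D1 did not pass the test. Psmb10 rose 1.90-fold (log2 fold change 0.93, SE 0.174, edgeR adjusted p 0.00262). Psmb8 rose 1.41-fold (0.49, SE 0.142, adjusted p 0.0240), and Tapbp rose 1.27-fold (0.35, SE 0.0964, adjusted p 0.0209). These 3 of the 9 members tested passed the threshold of 0.05, all higher, where 18.8% of all genes tested passed it and 9.92% were higher. The median log2 fold change was 0.16 over the 9 members and 0.00797 over all genes.

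The remaining 6 members did not pass. B2m was at 1.24-fold (log2 fold change 0.31, 95% interval 0.07 to 0.54, edgeR adjusted p 0.0643). H2-K1 had a log2 fold change of 0.03 (interval -0.20 to 0.26), which bounds a difference to between 13.1% lower and 19.4% higher. For H2-D1 it was 0.05 (-0.15 to 0.25), for Tap1 0.04 (-0.19 to 0.27) and for Tap2 0.16 (-0.11 to 0.44). Nlrc5 was the only member with a fitted value below 0 (-0.20, interval -0.43 to 0.02, adjusted p 0.200). Psmb10 was the only member whose libraries separated by age without overlap, which held for 11.4% of all genes. Tapbp and Psmb8 each lost the call without young WT 1 (edgeR adjusted p 0.0549 and 0.0626) or old WT 5 (0.0632 and 0.0695), and Psmb8 also without young WT 2, young WT 3 or old WT 10 (0.0621, 0.0518 and 0.0606). Without young WT 1 or old WT 5 the count of members called was thus 1.

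The inducible subunits take the place of constitutive ones in the proteasome, Psmb8 that of Psmb5 and Psmb10 that of Psmb7, so each pair was compared within a library. Psmb5 had 67.7, 54.5, 45.2, 45.6 and 40.6 CPM in young WT and 35.4, 37.7, 38.2, 35.7 and 42.2 CPM in old WT livers (log2 fold change -0.42, SE 0.127, edgeR adjusted p 0.0307). Psmb7 had 121, 108, 111, 115 and 105.5 CPM in young WT and 83.5, 94.3, 88.3, 81.1 and 104.5 CPM in old WT livers (-0.31, SE 0.0926, adjusted p 0.0280). Both constitutive subunits fell, and their inducible counterparts rose. The fall was not particular to these subunits. Of 14 genes listed as proteasome partners of the inducible subunits, both included, 11 had fitted values below 0 and 3 above. Their median log2 fold change was -0.23, against 0.00797 over all genes, and the part of this wider fall in the ratios below was not tested. Psmb5 lost its call without old WT 1, 4, 5 or 7 or young WT 1 or 2 (adjusted p 0.0538 to 0.0853), and Psmb7 without old WT 1, 5 or 7 or young WT 1, 3 or 4 (0.0524 to 0.0714) or with no filter on low counts (0.0520). Psmb6, the counterpart of Psmb9, had a log2 fold change of -0.09 (SE 0.0848, adjusted p 0.480).

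Read counts of Psmb8 divided by those of Psmb5 gave 0.128, 0.154, 0.193, 0.243 and 0.285 in young WT and 0.338, 0.304, 0.422, 0.324 and 0.403 in old WT livers. All 5 old WT ratios were above all 5 young ones, and the ratio was 1.85-fold higher (exact 2-sided permutation p 0.00794, the smallest that 5 against 5 allows, adjusted p 0.0238 over 6 ratio tests). Psmb10 divided by Psmb7 gave 0.0665, 0.0851, 0.0762, 0.103 and 0.114 in young WT and 0.239, 0.200, 0.278, 0.164 and 0.165 in old WT livers. This ratio was 2.35-fold higher in old WT livers, again without overlap (exact permutation p 0.00794, adjusted p 0.0238). These are ratios of counts, not of subunits, and within a library they need no scaling. On group medians, differences of 0.81 and 1.24 on the log2 scale, the exact permutation p was 0.0476 for both (adjusted p 0.0952). That is the smallest p that medians of 5 against 5 allow. After adjustment it passes only if all 6 tests reach it, so the test on medians could not decide here.

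**Figure D3:**
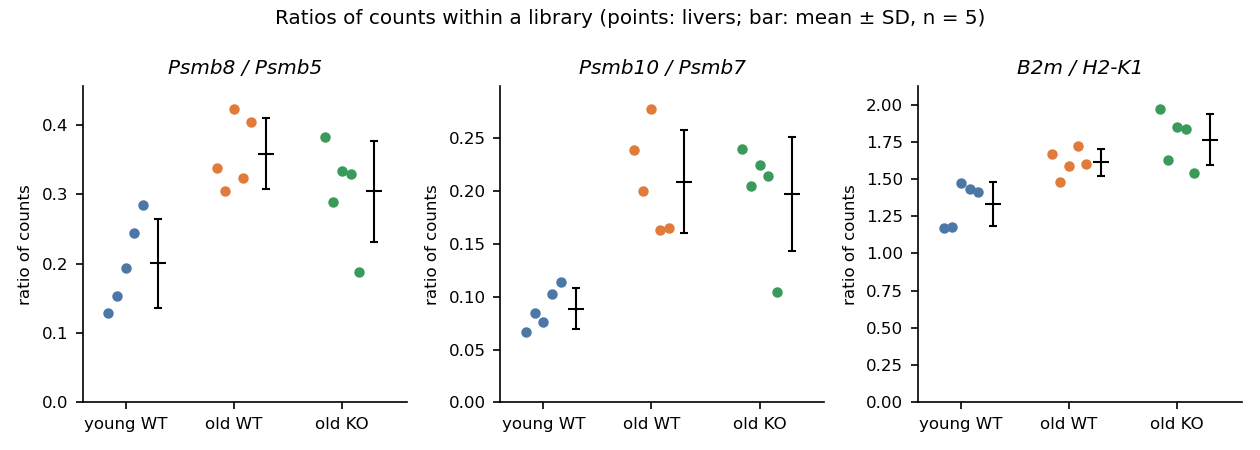
Ratios of read counts within each liver (points), with the group mean and SD (bars, n = 5), on axes that start at 0. The ratios of Psmb8 to Psmb5 and of Psmb10 to Psmb7 in old WT livers lie above every young liver, and old KO 6 lies low among old KO livers in both.

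The other genes of the route were counted from lists. Among 108 entries (107 genes) of 7 pathway lists, 16 changed with age (14.8%), 11 higher and 5 lower. Of all genes tested 18.8% changed, 9.92% higher and 8.91% lower, so the lists held no larger share. Leaving out young WT 6 gave 32, and leaving out young WT 1 or 1 of old WT 1 and 5 gave 8 to 10. Of 14 proteasome partners of the inducible subunits, 2 rose and 4 fell, or 2 rose and 5 fell without old KO 6. In comparisons with young WT, counts without old KO 6 are given here and below with no share of all genes for that fit. For age, all genes called were 2685 with all 15 libraries and 1748 to 3284 when 1 library was left out. Those that rose were Psme1, from 50.1 ± 10.6 to 71.6 ± 16.5 CPM (SD, n = 5 each; log2 fold change 0.51, edgeR adjusted p 0.0291), and Psme2, from 29.9 ± 3.33 to 40.6 ± 5.94 CPM (0.44, adjusted p 0.0111). They encode the interferon-inducible PA28 activator, a cap of the proteasome. Psme1 lost its call without old WT 5 or 10 or young WT 1, 2, 3 or 4 (adjusted p 0.0532 to 0.0757) and with the 10 libraries of the comparison alone (0.0651). Those that fell with all 15 libraries were the beta subunit genes Psmb2, Psmb4, Psmb5 and Psmb7, with Psmb4 at -0.46 (adjusted p 0.00740). Of these, only Psmb5 and Psmb7 are counterparts that inducible subunits replace.

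Of 22 regulators of class I transcription 4 rose and none fell. Irf7, an interferon regulatory factor, had 14.2, 12.8, 17.5, 21.1 and 24.5 CPM in young WT and 35.2, 51.1, 40.5, 26.9 and 39.1 CPM in old WT livers, which do not overlap (log2 fold change 1.10, SE 0.181, edgeR adjusted p 0.00121). Irf1, which binds the interferon-stimulated response element, rose from 23.01 ± 4.06 to 31.97 ± 2.63 CPM (0.48, adjusted p 0.0358), and Nfyb and Stat3 by 0.35 each. The call of Irf1 was lost without old WT 1, 5 or 10 or young WT 1, 2, 3 or 4 (adjusted p 0.0509 to 0.0919). Among 10 interferon ligands, receptors and feedback genes tested, Tyk2, a kinase of the interferon receptor, rose by 0.52 (adjusted p 0.00255). The interferon ligands themselves were hardly seen, with at most 3 counts of Ifng and none of Ifnb1 in any library.

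Of 18 class I-like heavy chain genes tested under 19 identifiers, H2-M2 and 1 of the 2 entries of H2-Q2 rose. Without old KO 6, 3 of the 19 identifiers were called higher. That entry of H2-Q2 (ENSMUSG00000079507), a heavy chain gene that shares windows with H2-D1, had 6.74, 5.68, 6.58, 5.27 and 5.56 CPM in young WT and 7.22, 12.8, 14.1, 17.7 and 13.3 CPM in old WT livers (log2 fold change 1.12, edgeR adjusted p 0.0130). The other entry (ENSMUSG00000091705) had 0.522 ± 0.160 CPM in young WT and 0.399 ± 0.108 CPM in old WT livers (SD, n = 5; -0.40, adjusted p 0.377). Of 17 peptide loading and trimming genes, Tapbpl, which encodes the tapasin-like editor TAPBPR, rose by 0.37 (adjusted p 0.00498) and Blmh, a cytosolic peptidase, fell by 0.23. Gbp10 was the single interferon-induced GTPase gene of 17 to pass (1.94, adjusted p 0.0376), although 16 of 17 fitted values were above 0. Gbp10 had 0.5528, 0.8854, 1.499, 1.627 and 6.036 CPM in young WT and 7.716, 5.584, 13.63, 1.246 and 10.99 CPM in old WT livers. Its highest young liver was young WT 6, and its lowest old WT liver was old WT 7. Gbp10 lost the call without old WT 1, 4, 5 or 10 or young WT 1, 2, 3 or 4 (adjusted p 0.0501 to 0.0985). With the 10 libraries of the comparison alone it lost the call too (0.0643). The other 7 fits with a library left out kept it, with an edgeR adjusted p down to 0.003715. Young WT 6 was also the highest young liver in the other GTPase genes, such as Gbp2 (21.17 CPM) and Igtp (66.05 CPM). None of the 9 MHC class II genes tested passed, with all 9 fitted values above 0 and 3 at an unadjusted p under 0.05. Without old KO 6, 3 of the 17 GTPase genes and 1 of the 9 class II genes passed, all higher, again with no share of all genes for that fit.

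Cell type markers moved with age as well. Summed T and NK cell markers had 4.58 to 10.05 CPM in young WT and 8.07 to 17.9 CPM in old WT livers. Of 13 tested 5 rose, or 4 without old KO 6. Cd3e, a defining T cell gene, had 0.484 ± 0.114 CPM in young WT and 0.944 ± 0.370 CPM in old WT livers (SD, n = 5). Leukocyte markers summed to 126 to 187 and 156 to 196 CPM, with 3 of 8 higher, or 4 without old KO 6. Lcp1 had 40322 of their counts over all libraries, against at most 7194 for another gene of the list. B and plasma cell markers summed to 3.42 to 6.99 and 8.05 to 42.4 CPM, with 3 of 7 higher. Jchain had 5258 of their counts over all libraries, against at most 700 for another gene of the list. Macrophage and Kupffer cell markers summed to 299 to 666 and 433.5 to 893 CPM, with 1 of 15 higher and 1 lower, or 5 higher and 1 lower without old KO 6. Ptprc, a gene of all leukocytes, had 11.7 ± 5.79 and 18.1 ± 3.81 CPM, and Cd79a, of B cells, 0.672 to 1.54 and 0.882 to 3.06 CPM, and neither passed. Liver endothelial markers went the other way, from 245 to 429.9 CPM in young WT to 199 to 337 CPM in old WT livers, with Stab1, Stab2 and Lyve1 of 10 called lower (-0.47, -0.56 and -0.94) and a median of -0.42. Pecam1, the defining endothelial gene, had 21.1 ± 4.49 and 16.3 ± 3.44 CPM and did not pass. Alb, the albumin gene of hepatocytes, had 89860 ± 16980 and 85110 ± 16830 CPM and did not pass either. None of these markers was at 0 in all libraries. Their part in the rise of Psmb8, Psmb10 and Tapbp was not tested, and in bulk liver more cells of a type and more RNA per cell cannot be told apart.

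The second comparison asked how loss of S6K1 changed these genes in old mice. None of the 9 members passed the threshold between old KO and old WT livers, where 0.533% of all genes did. The count was 0 with DESeq2 and with limma voom too, and 2 members had an unadjusted edgeR p under 0.05, against 11.6% of all genes. Tap1 had a log2 fold change of -0.33 (SE 0.110, 95% interval -0.56 to -0.09, adjusted p 0.223) and Nlrc5 of -0.28 (SE 0.108, interval -0.51 to -0.05, adjusted p 0.304).

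For the other members the intervals bound the size of a difference between genotypes. H2-K1 was at -0.05 (interval -0.28 to 0.18), between 17.4% lower and 13.5% higher in old KO livers. B2m was at 0.08 (-0.15 to 0.32), H2-D1 at -0.17 (-0.38 to 0.03), Tapbp at -0.03 (-0.23 to 0.17) and Tap2 at -0.00 (-0.28 to 0.28). Psmb8 was at -0.29 (-0.59 to 0.01, edgeR adjusted p 0.458) and Psmb10 at -0.04 (-0.40 to 0.32). Without old KO 6 the values of Psmb8, Psmb10, Tap2 and Tap1 were -0.21, 0.08, 0.11 and -0.25, and none passed. The ranges of old KO and old WT livers overlapped for all 9 members, where they did not overlap for 3.2% of all genes.

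The ratio of Psmb8 to Psmb5 was 0.382, 0.289, 0.333, 0.328 and 0.188 in old KO livers, with a log2 difference of -0.26 from old WT (exact permutation p 0.222, adjusted p 0.267). Without old KO 6 that difference was -0.10, and on group medians it was -0.04. That of Psmb10 to Psmb7 was 0.240, 0.205, 0.225, 0.214 and 0.104 (log2 difference -0.11, exact permutation p 0.762), with a difference of 0.11 without old KO 6. In both, old KO 6 was the lowest.

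None of the 108 pathway entries passed between genotypes by edgeR, and 21 had an unadjusted p under 0.05, against 11.6% of all genes. All 17 interferon-induced GTPase genes had fitted values below 0, with a median of -0.48, as had all 9 MHC class II genes, with a median of -0.50, against a median of 0.000797 over all genes. The median of the 9 class I members was -0.05. Without old KO 6, 16 of the 17 GTPase genes and all 9 class II genes were below 0, with medians of -0.39 and -0.51. Irf7 had 26.7, 21.4, 20.3, 22.3 and 18.01 CPM in old KO livers, all below the old WT range (log2 fold change -0.83, SE 0.181, edgeR adjusted p 0.0530). Without old KO 6 its log2 fold change was -0.77 (edgeR adjusted p 0.115).

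Of the marker lists, those of macrophages and Kupffer cells and of leukocytes held genes that passed between genotypes. The summed level of macrophage and Kupffer cell markers was 229.5 to 398 CPM in old KO and 433.5 to 893 CPM in old WT livers, without overlap, and 7 of 15 fell, with all 15 fitted values below 0 and a median of -1.04. Without old KO 6 none of the 15 passed, with all 15 still below 0 and a median of -1.03, while all genes called went from 76 to 13. Clec4f, which marks Kupffer cells, had 90.04 ± 32.5 CPM in old WT and 37.4 ± 5.86 CPM in old KO livers (SD, n = 5), and Cd68, a macrophage lysosomal gene, 11.4 ± 1.76 and 5.01 ± 1.55 CPM. Leukocyte markers summed to 115 to 160 CPM in old KO livers, with Rac2 of 8 called lower (-0.83), or none without old KO 6, and all 8 fitted values below 0 (median -0.82). Ptprc had 10.5 ± 3.63 CPM and did not pass. T and NK cell markers summed to 4.54 to 11.7 CPM, with none of 13 called and all 13 below 0 (median -0.69). The other lists were B and plasma cell markers, at 14.2 to 73.6 CPM with none of 7 called, liver endothelial markers, at 248 to 282 CPM with none of 10 called, and dendritic cell markers, at 14.5 to 19.3 CPM with none of 6 called. The part of these markers in the values of Tap1 and Nlrc5 was not tested.

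**Figure D4:**
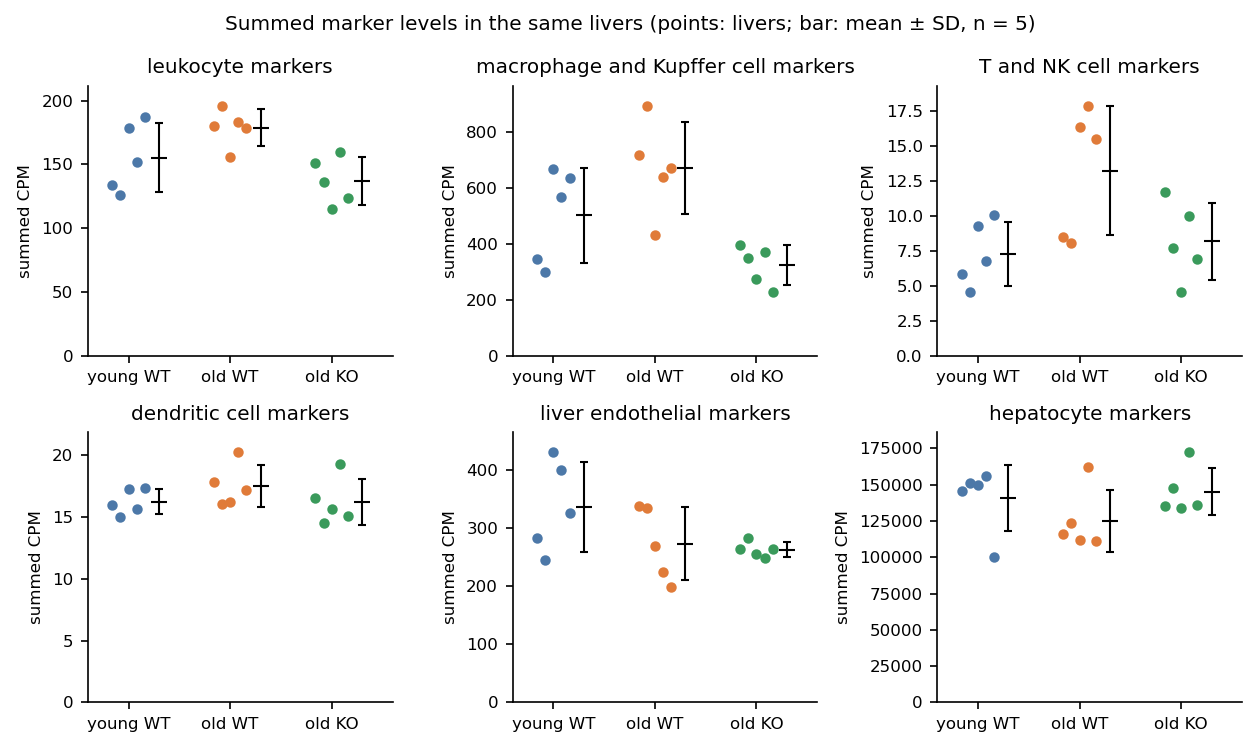
Summed marker levels in CPM in each liver (points) with the group mean and SD (bars, n = 5), on axes that start at 0. Macrophage and Kupffer cell markers in old KO livers lie below those of every old WT liver, and T and NK cell markers reach their highest levels in old WT livers.

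The third comparison set old KO against young WT livers, which differ in both age and genotype, and shares each of its groups with one of the other comparisons. Of the 9 members 4 passed, 3 higher and 1 lower, where 23.3% of all genes passed, 12% higher and 11.3% lower. Psmb10 was 1.85-fold higher (log2 fold change 0.89, SE 0.174, edgeR adjusted p 0.00234), B2m 1.31-fold higher (0.39, SE 0.111, adjusted p 0.0195) and Tapbp 1.25-fold higher (0.32, SE 0.0965, adjusted p 0.0271). Nlrc5 was 1.40-fold lower (-0.48, SE 0.108, adjusted p 0.00509). The ranges of old KO and young WT livers did not overlap for Psmb10, B2m and Nlrc5, as for 13.9% of all genes.

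Nlrc5 thus passed in the comparison that joins age and genotype, at values of -0.20 for age and -0.28 for genotype that passed in neither. B2m lost its call without young WT 2 (edgeR adjusted p 0.0509) or old KO 5 (0.0610), and Tapbp lost its own without old KO 1, 2, 4 or 5 or young WT 1 or 2 (0.0508 to 0.0711) or with no filter on low counts (0.0502). The count of members called was 2 without young WT 2 or old KO 5. Tap1 was at -0.29 (adjusted p 0.0690), Psmb8 at 0.21 (adjusted p 0.305), Tap2 at 0.16, H2-D1 at -0.13 and H2-K1 at -0.02. The ratio of Psmb10 to Psmb7 was 2.18-fold higher in old KO than in young WT livers (exact permutation p 0.0159, adjusted p 0.0317), and that of Psmb8 to Psmb5 was 1.54-fold higher (exact permutation p 0.0635, adjusted p 0.0952). The first missed the threshold without old KO 1, 2, 4 or 5 (adjusted exact permutation p 0.0635 in each), and the second passed without old KO 6 or young WT 6 (0.0317 and 0.0397). Of the constitutive subunits in these ratios, Psmb5 was at -0.42 (edgeR adjusted p 0.0255, or 0.00991 to 0.0711 with a library left out). Psmb7 was at -0.24 (adjusted p 0.0730), or -0.32 without old KO 6 (0.0143).

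**Figure D5:**
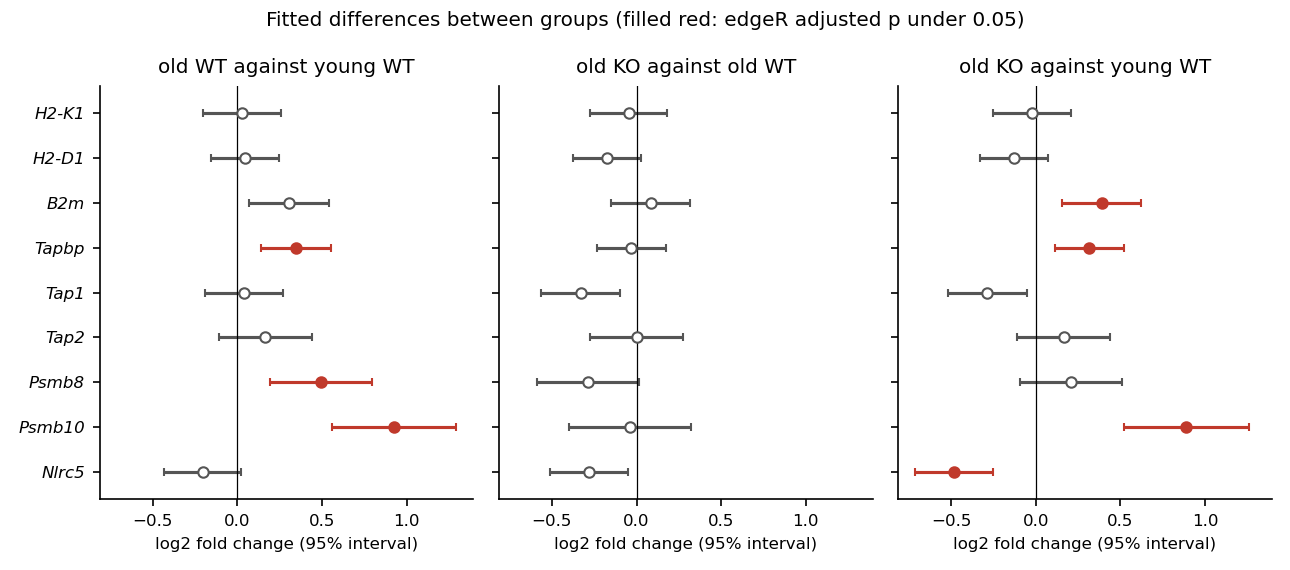
Log2 fold changes of the 9 members with 95% intervals in the 3 comparisons, with filled red points for an edgeR adjusted p under 0.05. The 3 filled points for age are Tapbp, Psmb8 and Psmb10, none is filled for genotype, and the 4 for old KO against young WT are B2m, Tapbp, Psmb10 and Nlrc5.

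Among 108 pathway entries 23 passed between old KO and young WT livers (21.3%), 12 higher and 11 lower, against 23.3% of all genes tested, 12% higher and 11.3% lower. Class I-like heavy chain genes moved both ways, 3 of 19 entries higher and 5 lower, or 5 higher and 1 lower without old KO 6. Mr1, which presents vitamin B metabolites to MAIT cells, rose from 3.81 ± 0.704 to 7.49 ± 2.68 CPM (SD, n = 5 each; log2 fold change 0.98, edgeR adjusted p 0.00556) and H2-K2 by 0.70 (adjusted p 0.00913). H2-Q8 fell by 0.62 and H2-M3, which presents formylated peptides, by 0.55 (adjusted p 0.0354 and 0.0398). Irf1 and Tyk2 were higher (0.53 and 0.50). Rfxank, a subunit of the RFX complex that binds MHC promoters, was lower (-0.49, adjusted p 0.0241), and so was Ezh2, a histone methyltransferase (-0.51, adjusted p 0.0179). H2-Q8 lost its call without old KO 2, 4 or 6 or young WT 1, 2 or 3 (adjusted p 0.0577 to 0.0900), and Rfxank without old KO 4 or young WT 1 (0.0658 and 0.0713). H2-M3 kept its call without old WT 1, 5, 7 or 10 or old KO 1 or 2 and lost it in the other 9 fits (0.0509 to 0.0979), and Ezh2 lost it without old KO 4 (0.0507). H2-M3 also missed the threshold with no filter on low counts (0.0631) and with the 10 libraries of the comparison alone (0.0722). Of the markers, Stab1, Stab2 and Lyve1 of liver endothelium (-0.50, -0.62 and -1.33) and 7 of 15 of macrophages and Kupffer cells (4 without old KO 6) were lower, and their part in these values was not tested. The count of pathway genes called was 9 to 15 without old KO 4 or 5 or young WT 1, 3 or 4.

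The members also varied together from liver to liver within groups. Over 15 libraries, with the group mean taken off log2 CPM, the 36 pairs of the 9 members had a median Pearson r of 0.416, and 34 were above 0. The members and the 14249 other genes tested had a median r of -0.00479, with lower and upper quartiles of -0.226 and 0.217. The highest was that of Tapbp with Psmb10 (0.912), followed by H2-K1 with H2-D1 (0.817), which share sequence, and Tapbp with Psmb8 (0.787). The lowest was H2-D1 with Tap1 (-0.226). Old KO 6 was low in Tapbp, Psmb8 and Psmb10, and without it the median over the pairs was 0.366, with 33 above 0, and the pairs of Tapbp with Psmb10 and with Psmb8 were at 0.863 and 0.71. Outside the list, the genes most like the members by the median r with them were Ifitm3 (0.721), an interferon-induced membrane protein gene, Thnsl2 (0.68), Adhfe1 (0.669), H2-T22 (0.664), a class I-like heavy chain gene, and Gm17634 (0.662). Without old KO 6 these values were 0.559, 0.406, 0.480, 0.603 and 0.626, and Gm17634 was the only one to stay among the 5 most like. These are descriptions over 15 libraries that share their group means and scaling.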

How the data were processed

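RNA was extracted with Trizol from whole liver, and stranded poly(A) libraries were sequenced as single-end reads of 50 bases. The authors used CASAVA, aligned to mm9 with TopHat2 2.0.11 and made a gene table with HTSeq. It was deposited as raw counts for each gene, and the annotation and strand setting were not given in the sources used here. The submitters' processing notes also name DESeq2 1.18.1.

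Groups and replicate numbers came from the sample titles. TMM scaling and the filterByExpr filter were applied in edgeR 4.0.16 (R 4.3.3), which left 14258 genes. A quasi-likelihood model was fitted to all 15 libraries (common biological coefficient of variation 0.189), with Benjamini-Hochberg adjustment over all genes and a threshold of 0.05. CPM uses the TMM-scaled library size, and intervals are 95%. Ratios of counts were compared by exact 2-sided permutation over 252 assignments. Of the 9 ratio tests planned 3 had no value because Psmb9 had no counts, so adjustment was over 6. The fit was tested on simulated data. Alternatives were DESeq2 1.42.0, limma voom (limma 3.58.1), other scalings and filters, the replicate number as a block, the 10 libraries of a contrast alone and leaving out each library. Likeness and list counts without old KO 6 were added after the data were seen.

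Positions came from GENCODE M1 on NCBIM37 and promoters from RefSeq, where Tap2 and Nlrc5 had no entry. Of 231 list entries 3 did not match and 1 matched by a synonym. The members and lists were chosen with earlier results of these data known. Named genes were the members, Rps6kb1, the constitutive counterparts, up to 8 pathway genes per comparison that passed the threshold with the largest change and a mean of at least 1 CPM, the 5 genes most like the members and 7 cell markers. H2-M2, Tapbpl, Stab1, Stab2, Lyve1, Rac2, Cela1, Blmh, Psmb2, Nfyb, Stat3, Ifng, Ifnb1, Lcp1, Jchain, Spp1 and Dcn were named after their values were seen.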

Additional observations from a re-analysis of the deposited data

Results flagged for a closer look

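Among the members and ratios tested in groups of 5, a library was taken as far from the others when its gap to the nearest was more than 0.71 of the group's range. Of 33 groups 4 met this, where chance gives about 1 in 20, and all 4 were old KO 6. The 4 are not independent, since they come from 1 library and the ratio holds Psmb10 itself. They cannot be set against that rate as separate draws. That library had 56.9 CPM of Tapbp, with the nearest at 71.5 CPM. Its level of Psmb8 was 8.68 CPM, against 11.4 CPM in the nearest. Psmb10 was at 12.1 CPM there and at 18.7 CPM in the nearest. The Psmb10 to Psmb7 ratio was 0.104, with the nearest at 0.205. Without old KO 6 the log2 fold changes of old KO against old WT were 0.03 for Tapbp, -0.21 for Psmb8 and 0.08 for Psmb10, none past the threshold. The same library had the highest level of skeletal muscle genes (21.7 CPM) and the lowest of macrophage and Kupffer cell markers (229.5 CPM), and their part in these values was not tested.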

How the results depend on the processing

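Counts of genes past the threshold moved more than the members' fold changes, and the cause was not tested. All genes called for genotype went from 76 to 305 with DESeq2, 23 with voom, 6 with the replicate number as a block and 9 to 108 when 1 library was left out. For age all genes called went from 2685 to 899 with the block and 1748 to 3284 with a library left out, the members called from 3 to 1 and 1 to 4, and the pathway genes called from 16 to 6 and 8 to 32. Members called for genotype stayed at 0 under every setting run, and pathway genes called were 1 with DESeq2, upper quartile scaling, no filter or 10 libraries, and 0 to 1 with a library left out. For old KO against young WT the members called were 2 to 4 with a library left out, and the pathway genes 15 with 10 libraries, 13 with the block and 9 to 23 with a library left out. Same-numbered samples correlated at -0.153 to 0.077. These values show no pairing by number, and whether same-numbered samples share a litter or a batch was not tested.

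On group medians the log2 differences of Psmb8 to Psmb5 and Psmb10 to Psmb7 for age were 0.81 and 1.24, and those of Psmb10 to Psmb7 were 1.33 against young WT and 0.0963 for genotype. With a library left out Psmb8 to Psmb5 for old KO against young WT was 0.474 to 0.784, and Psmb10 to Psmb7 was -0.19 to 0.11 for genotype and 1.03 to 1.34 against young WT. Fold changes near 0 that changed sign were H2-K1 and H2-D1 for age (-0.06825 and -0.08192 with the block), Psmb6 against young WT (-0.00378 with the block), and Psmb5 and Tap2 for genotype (0.00313 and 0.00471 with DESeq2, 0.00315 and 0.00453 with RLE, 0.00325 and 0.0199 with the block). With a library left out the ranges were -0.0262 to 0.0933 for H2-K1 and -0.0036 to 0.0942 for Tap1 with age, -0.0836 to 0.0626 for Psmb5, -0.101 to 0.041 for Tapbp, -0.0635 to 0.106 for Tap2, -0.00530 to 0.132 for Psmb7, -0.15 to 0.08 for Psmb10, -0.00648 to 0.133 for B2m and -0.12 to 0.00569 for H2-K1 with genotype, and -0.0813 to 0.0329 for H2-K1 and -0.00162 to 0.0882 for Psmb6 against young WT. Psmb10 for age and Psmb10 and Nlrc5 for old KO against young WT passed in every setting run. B2m for age passed with DESeq2 (adjusted p 0.0326) and when old KO 5 (0.0458), old WT 4 (0.048) or old WT 7 (0.0474) was left out. With the block, Tapbp and Psmb8 for age were at 0.33 and 0.27 (adjusted p 0.152 and 0.407), B2m and Tap2 at 0.15 and 0.01 (0.448 and 0.974), and of the other genes named Psmb5, Psmb7, Psmb4, Psme1, Psme2, Irf1, Gbp10 and H2-Q2 also missed the threshold for age (0.211, 0.166, 0.126, 0.129, 0.0597, 0.263, 0.147 and 0.432), H2-Q2 at 0.47. Against young WT so did Tapbp, Irf1, H2-M3, H2-K2, Rfxank and Psmb5 in old KO (0.103, 0.109, 0.110, 0.0606, 0.0633 and 0.0967).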

Other observations

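B2m and H2-K1 encode partners in 1 molecule, and their counts were divided within each library after their values had been seen, so the ratio is a description with no test. B2m divided by H2-K1 was 1.17, 1.18, 1.48, 1.44 and 1.41 in young WT, 1.67, 1.48, 1.59, 1.72 and 1.60 in old WT, and 1.97, 1.63, 1.85, 1.84 and 1.54 in old KO livers. The group means were 1.33, 1.61 and 1.76.

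Of the 7 pancreas acinar genes Cela1, an elastase gene, made up nearly all of a sum of 3.79 to 6.39 CPM. It had 4.20 ± 0.750 CPM in young WT and 5.66 ± 0.469 CPM in old KO livers (SD, n = 5; log2 fold change 0.43, edgeR adjusted p 0.0195), and Cpa1 and Pnlip had 0 counts throughout. Bile duct markers summed to 29.8 to 51.0 CPM in young WT, 38.7 to 106 CPM in old WT and 38.5 to 94.7 CPM in old KO livers. Spp1 had 21781 of their counts over all libraries, against at most 2063 for another gene of the list. Stellate cell markers summed to 225 to 426 CPM over all livers. Dcn had 86709 of their counts, against at most 26891 for another gene of the list.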
